A study of Drosophila melanogaster with 8 samples.

Results

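Expression was examined for 10 genes of insulin and TOR signaling, *InR*, *chico*, *Akt1*, *foxo*, *Tsc1*, *gig*, *Rheb*, *Tor*, *S6k* and *Thor*, out of the 17868 genes in each expression table. They were chosen by name as the core of the pathway, from the receptor to the targets of TOR, and all 10 had an entry. The choice was made with earlier results of these data known, so the list is not independent evidence. The libraries were made from neurons of Drosophila melanogaster. Neurons labeled with EGFP were sorted by FACS from dissociated brains of male flies about 2 weeks old, kept in light-dark cycles at 25 °C. There were 4 groups of 2 libraries: *clk856 > EGFP* at ZT14, *clk856 > EGFP* at ZT2, *nSyb > EGFP* at ZT14 and *nSyb > EGFP* at ZT2, where ZT counts the hours after lights on. The clk856-GAL4 driver labels clock neurons, the nSyb-GAL4 driver labels all neurons, clock neurons included, and EGFP is the only product driven by GAL4 in either genotype. Each library pooled cells from several brains, with more brains but fewer cells for clk856. The methods state that each dissociation yielded 2 collections of neurons, so the libraries R1 and R2 of a group may be collections from 1 dissociation. The labels do not say so for single libraries, and the p-values are therefore taken to measure only the spread between these libraries, which may be technical.

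In flies, insulin-like peptides bind the insulin receptor InR, which acts through the adaptor Chico and PI3 kinase to activate the kinase Akt. Akt keeps the transcription factor FOXO out of the nucleus and relieves the inhibition that the TSC complex, made of Tsc1 and gigas (Tsc2), exerts on the GTPase Rheb. Rheb activates the kinase TOR, which responds to amino acids as well and promotes growth and protein synthesis through S6 kinase and through the inhibition of Thor (4E-BP). The pathway is known for its roles in growth, metabolism and aging, and in the fly brain it has also been linked to the speed of the circadian clock.

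Between 4823985 and 8439193 reads fell on genes in a clk856 library, against 7970236 to 8449829 in an nSyb library, and 8939 to 9991 genes had a read in clk856, against 7937 to 8400 in nSyb. The nSyb libraries varied more: the biological coefficient of variation within time points was 0.352 in clk856 and 0.799 in nSyb over 7784 genes. The labeled cell types matched their markers. The summed RPM of 6 clock neuron markers (*Clk*, *tim*, *vri*, *per*, *Pdf* and *cry*) was 303 to 1348 in clk856, against 11.2 to 54.1 in nSyb, and that of 4 neuronal markers was 2204 to 2324, against 2024 to 2241. The summed RPM of 7 glial markers was lower in every clk856 library, 76.2 to 123, against 136 to 323 in nSyb, although only *Eaat1* passed the test (1 of 6 tested). Insulin-producing cells left almost no trace, with *Ilp2*, *Ilp3* and *Ilp5* summing to 1.10 to 1.40 RPM in clk856, against 0 to 0.05 RPM in nSyb. The 4 fat body markers summed to 94.8 to 129 RPM in clk856, against 45.6 to 65.0 RPM in nSyb, while *Lsp2* and *Fbp1* were at 0 in all 8 libraries. Of the 2 tested, *FASN1* was higher in clk856 (log2 fold change 1.37) and *apolpp* was not called (-0.31), so the higher sum rested on *FASN1*. Hemocyte markers (92.8 to 139.6 RPM in clk856, against 84.4 to 153 RPM in nSyb) and photoreceptor markers (0.10 to 3.87 RPM, against 1.53 to 6.80 RPM) overlapped between the genotypes in their sums, with inaD at 0 in all clk856 libraries.

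The first question was which of these genes differ between clock neurons and neurons in general. Of the 10 genes, *Tsc1* and *Akt1* were higher in clk856 and no member was lower, while 8 were not called (edgeR quasi-likelihood test, adjusted p under 0.05). Across all genes tested, 17.0% were called, 10.3% higher and 6.69% lower, so that 2 of 10 members was a share near the background. The count was 1 without any 1 of the clk856 libraries or of the nSyb libraries at ZT14, and 3 without nSyb ZT2 R1. The median log2 fold change of the members was 0.55, against -0.01 for the 7784 genes tested, and 7 members had a positive and 3 a negative value. At an unadjusted p under 0.05 there were 3 members, beside 29.6% of all genes. For 4 members, *Tsc1*, *Akt1*, *gig* and *Tor*, every clk856 library lay above every nSyb library, where 26.7% of all genes did not overlap between the genotypes and 12.3% did so with clk856 on top. Glial and fat body marker sums moved with the genotype as given above, though only *Eaat1* and *FASN1* among these markers were called. The part of such cells in these results was not tested. RNA per cell and the number of cells of a type that contribute to a library cannot be told apart in such bulk samples.

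**Figure D1:**
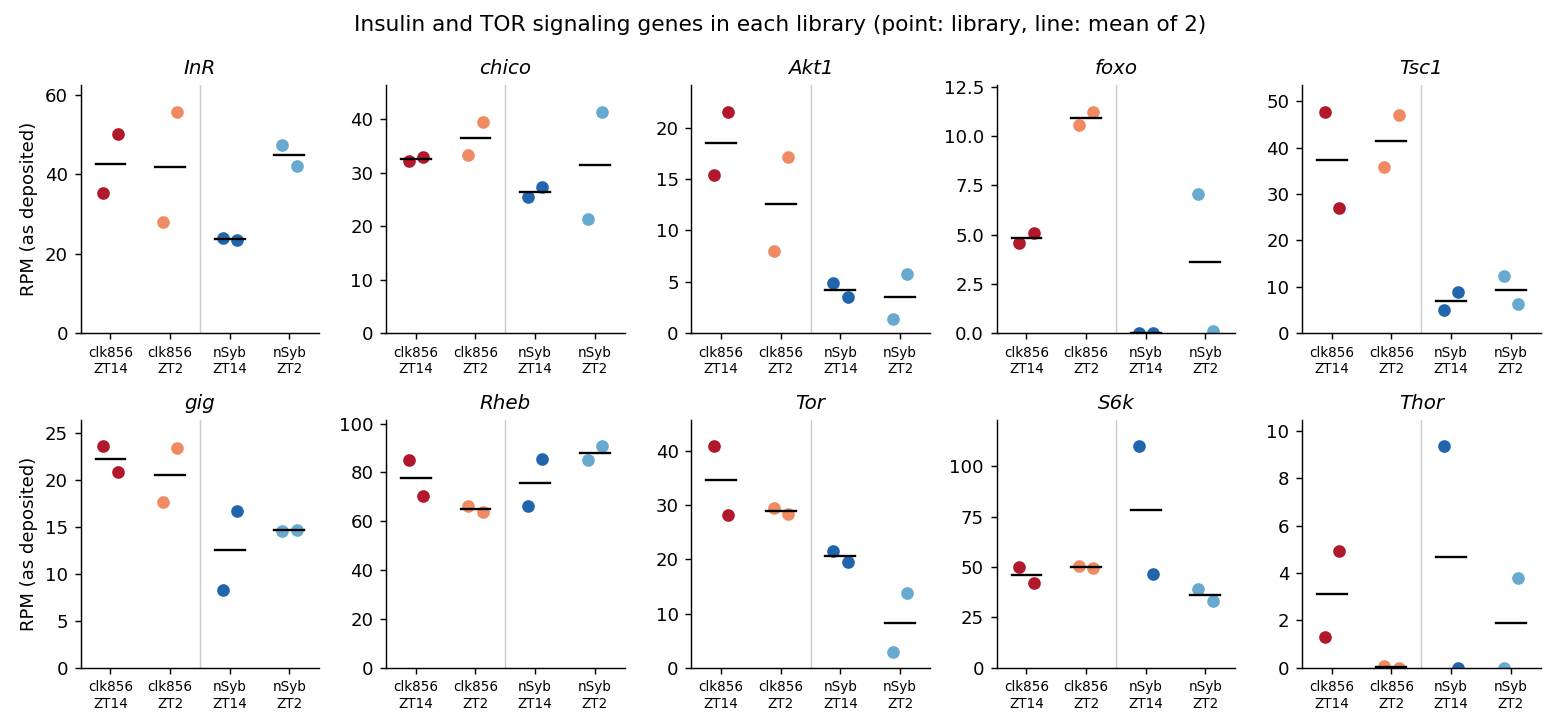
Deposited RPM (reads scaled to library size, vertical axis from 0) of the 10 insulin and TOR signaling genes in each library, with points for libraries and a line for the mean of the 2 libraries of a group. Tsc1 lies at 26.9 to 47.8 RPM in the clk856 libraries and at 4.90 to 12.3 RPM in the nSyb libraries, whereas Rheb lies at 63.6 to 84.9 RPM in clk856 and 66.4 to 90.7 RPM in nSyb.

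The receptor gene *InR* (dm6, chromosome 3R, 21570248 to 21619321, minus strand) had 35.4 and 50.1 RPM in clk856 at ZT14 and 27.99 and 55.8 RPM at ZT2. In nSyb it had 23.8 and 23.5 RPM at ZT14 and 47.5 and 42.2 RPM at ZT2. The genotypes overlapped, because the nSyb libraries at ZT2 lay within the range of clk856. *InR* averaged 42.3 ± 12.9 RPM in clk856 and 34.2 ± 12.4 RPM in nSyb (SD, n = 4 each), with a log2 fold change of 0.37 (SE 0.32, adjusted p = 0.499).

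The gene of the receptor substrate, *chico* (chromosome 2L, 10242512 to 10247078, minus strand), was among the steadiest members in clk856, with 32.3 and 32.9 RPM at ZT14 and 33.3 and 39.6 RPM at ZT2. The nSyb libraries had 25.6 and 27.3 RPM at ZT14 and 21.3 and 41.5 RPM at ZT2, so that 1 nSyb library was above all those of clk856. The log2 fold change was 0.32 (SE 0.25, adjusted p = 0.457). An antisense gene shares 10.6% of the exon bases of *chico*, and since the counting strand is not given in the sources used here, reads of the pair could not be told apart there.

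*Akt1*, which encodes the kinase downstream of PI3 kinase (chromosome 3R, 16099228 to 16105670, plus strand), had 15.4 and 21.6 RPM in clk856 at ZT14 and 7.97 and 17.1 RPM at ZT2. Its level in nSyb was 4.85 and 3.51 RPM at ZT14 and 1.36 and 5.74 RPM at ZT2. All 4 clk856 libraries were above all 4 nSyb libraries, and the means were 15.5 ± 5.66 and 3.87 ± 1.91 RPM (SD, n = 4 each), a 4.01-fold ratio. The log2 fold change of 2.06 (SE 0.61) passed the test with an adjusted p of 0.0429. The call was close to the threshold: it was lost without clk856 ZT14 R1 (adjusted p = 0.108), clk856 ZT14 R2 (0.154), clk856 ZT2 R1 (0.0531), clk856 ZT2 R2 (0.11), nSyb ZT14 R1 (0.0562) or nSyb ZT14 R2 (0.0753), and 5 of 18 alternatives kept it, with log2 fold changes from 1.78 to 2.33 over all 18. The direction was the same in all of them.

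The gene of the transcription factor FOXO, *foxo* (chromosome 3R, 14056945 to 14087978, plus strand), was low in both genotypes. It had 4.56 and 5.07 RPM in clk856 at ZT14 and 10.6 and 11.3 RPM at ZT2, where 66, 76, 188 and 113 reads were counted. In nSyb it had 0 reads in both ZT14 libraries, 125 reads (7.09 RPM) in ZT2 R1 and 2 reads (0.11 RPM) in ZT2 R2. A library with 0 reads allows up to 0.171 RPM at these depths, taking 3 reads as the limit that a count of 0 allows by counting error alone, so that *foxo* was below every clk856 library in 3 of the 4 nSyb libraries. A single nSyb library therefore decided the comparison. With it, the log2 fold change was 2.21 (SE 1.73, adjusted p = 0.45), and without it the fitted value was 7.53 (adjusted p = 0.00858), a number that depends on the prior count because almost no nSyb reads remain.

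*Tsc1* (chromosome 3R, 24130307 to 24134654, plus strand), the stabilizing subunit of the TSC complex, showed the highest log2 fold change of the members. It had 47.8 and 26.9 RPM in clk856 at ZT14 and 35.8 and 47.1 RPM at ZT2. The nSyb libraries had 4.90 and 8.94 RPM at ZT14 and 12.3 and 6.17 RPM at ZT2. The lowest clk856 library was above the highest nSyb library, and the means were 39.4 ± 9.99 and 8.08 ± 3.29 RPM (SD, n = 4 each), a 4.88-fold ratio. The log2 fold change was 2.36 (SE 0.36, adjusted p = 0.00177). Leaving out any 1 library gave 2.19 to 2.63, with adjusted p values of 0.00129 to 0.0104. The call was lost when the comparison used only ZT2 (2.25, adjusted p = 0.11) or only ZT14 (2.52, adjusted p = 0.0697), with 2 libraries against 2.

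Its partner *gig* (chromosome 3L, 20129181 to 20139010, plus strand), the subunit with the GTPase-activating domain that acts on Rheb, differed less. It had 23.6 and 20.8 RPM in clk856 at ZT14 and 17.7 and 23.3 RPM at ZT2, against 8.27 and 16.7 RPM at ZT14 and 14.6 and 14.6 RPM at ZT2 in nSyb. The genotypes did not overlap, but the log2 fold change of 0.72 (SE 0.34) did not pass the test (adjusted p = 0.188).

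The balance of these subunits could be followed in each library as *Tsc1* over *gig* in RPM per kb of exon, since levels of different genes can be compared only per length. The ratio was 3.02 and 1.92 in clk856 at ZT14 and 3.02 and 3.01 at ZT2. In nSyb it was 0.881 and 0.795 at ZT14 and 1.26 and 0.627 at ZT2. The ratio thus lay above 1 in all clk856 libraries and on both sides of 1 in nSyb, without overlap. The pair was singled out after its values were seen, so no test is given. The separation was not particular to *gig*, since *Tsc1* over *Rheb* was 0.121 to 0.233 in clk856 and 0.0214 to 0.0455 in nSyb. The other 4 pairs calculated overlapped between the genotypes, such as *Tor* over *raptor*, at 3.0 to 8.74 in clk856 and 0.183 to 10.8 in nSyb.

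**Figure D2:**
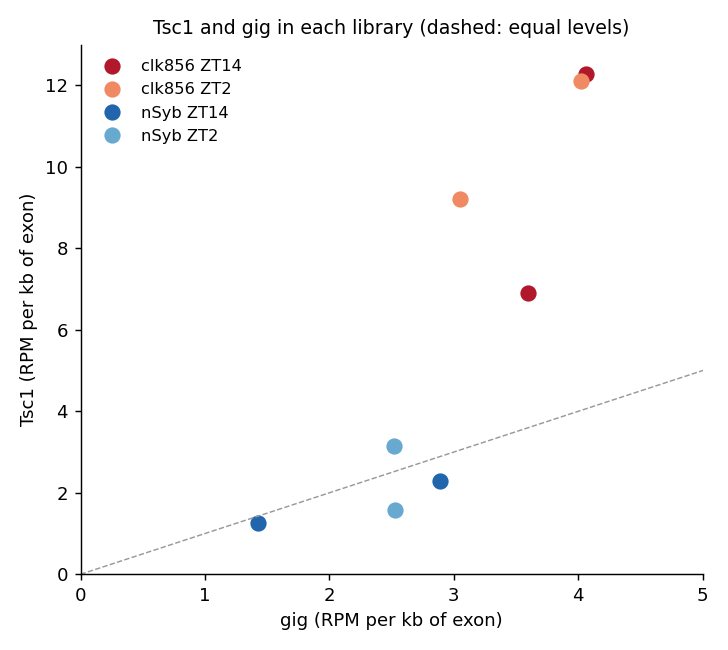
Level of Tsc1 (vertical axis) against that of gig (horizontal axis), both in RPM per kb of exon, with 1 point per library and a dashed line where the levels are equal. The clk856 libraries lie above the line, at ratios of 1.92 to 3.02, and the nSyb libraries lie near it, at 0.627 to 1.26.

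*Rheb* (chromosome 3R, 5568921 to 5570491, plus strand), the GTPase that activates TOR, was similar in all groups. It had 84.9 and 70.2 RPM in clk856 at ZT14 and 66.4 and 63.6 RPM at ZT2, against 66.4 and 85.3 RPM at ZT14 and 85.1 and 90.7 RPM at ZT2 in nSyb. The genotypes overlapped over most of their range, and the log2 fold change was -0.13 (SE 0.16, adjusted p = 0.64), with the smallest SE of the 10 members.

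The kinase gene *Tor* (chromosome 2L, 13004480 to 13013197, plus strand) had 40.8 and 28.2 RPM in clk856 at ZT14 and 29.4 and 28.3 RPM at ZT2. In nSyb its level was 21.6 and 19.5 RPM at ZT14 and 2.89 and 13.8 RPM at ZT2. All clk856 libraries were above all nSyb libraries, and the library nSyb ZT2 R1 was far below the rest, with 51 reads. The log2 fold change of 1.20 (SE 0.51) had an unadjusted p of 0.0414 and an adjusted p of 0.149. DESeq2 called it at the threshold (1.20, adjusted p = 0.0498).

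Of the TOR substrates, *S6k* (chromosome 3L, 5797549 to 5810931, minus strand), the gene of S6 kinase, had 49.7 and 42.1 RPM in clk856 at ZT14 and 50.4 and 49.4 RPM at ZT2. In nSyb the values were 110 and 46.7 RPM at ZT14 and 38.9 and 33.0 RPM at ZT2. Only nSyb ZT14 R1 was above clk856, and it set the direction: the log2 fold change was -0.18 (SE 0.35, adjusted p = 0.787) with it and 0.36 without it (adjusted p = 0.248).

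*Thor* (chromosome 2L, 3478434 to 3479612, plus strand), the translational repressor that TOR inhibits and FOXO activates, had the largest coefficient of variation of the members in clk856 (147%), and the second largest in nSyb (134%) after *foxo* (196%). It had 1.31 and 4.94 RPM in clk856 at ZT14 and 0.06 and 0 RPM at ZT2. In nSyb it had 9.35 and 0 RPM at ZT14 and 0 and 3.81 RPM at ZT2. Both genotypes thus ran from 0 to several RPM, and the log2 fold change of -1.02 (SE 2.03, adjusted p = 0.799) turned to 0.33 without nSyb ZT14 R1 (adjusted p = 0.943).

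**Figure D3:**
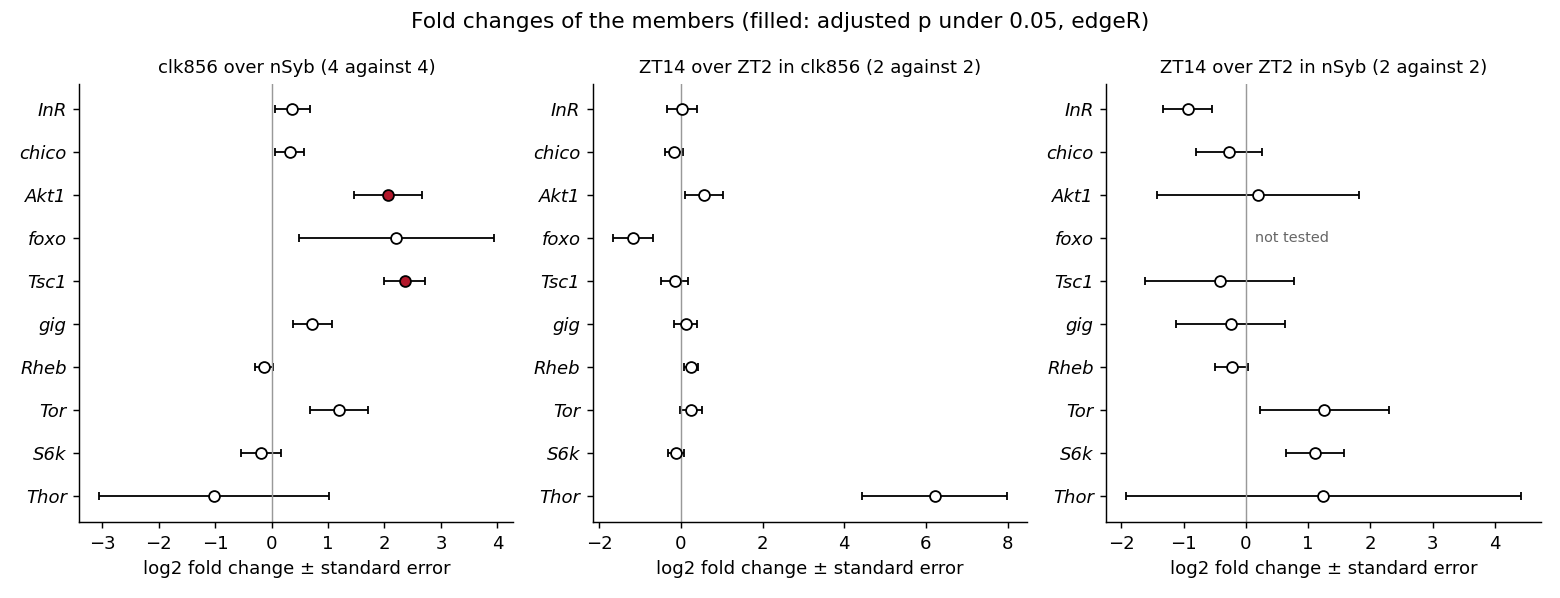
Log2 fold changes with their standard errors (horizontal axis) of the 10 genes for clk856 over nSyb, for ZT14 over ZT2 in clk856 and for ZT14 over ZT2 in nSyb, with filled points for an adjusted p under 0.05 in edgeR. Filled points appear in the first panel only, for Tsc1 (2.36) and Akt1 (2.06), and foxo was not tested for time in nSyb.

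Per kb of exon, *Rheb* was the most abundant of the 10 transcripts in both genotypes, at 58.2 ± 7.74 RPM per kb in clk856 and 66.8 ± 8.69 in nSyb (SD, n = 4 each). In clk856, *Tsc1* (10.1), *S6k* (9.81) and *chico* (9.65) followed, then *Tor* (3.97), *InR* (3.72), *gig* (3.68), *Akt1* (3.17), *Thor* (2.09) and *foxo* (1.90). Only the steps below *Rheb* and below *chico* separated neighbors without overlap. In nSyb the order was *S6k* (11.7), *chico* (8.07), *Thor* (4.36), *InR* (3.01), *gig* (2.34), *Tsc1* (2.07), *Tor* (1.81), *Akt1* (0.791) and *foxo* (0.436) after *Rheb*, and all neighbors below *Rheb* overlapped. *Tsc1* thus stood directly below *Rheb* in clk856 and 7th of 10 in nSyb. The coefficient of variation over the 4 libraries was larger in nSyb for 8 of the 10 genes, the exceptions being *Rheb* and *Thor*.

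The genes whose levels over the 8 libraries were most like those of *Tsc1* were *Dhc64C*, which encodes the heavy chain of cytoplasmic dynein (r = 0.987), *slp2* (r = 0.982) and *RpL23A*, which encodes a ribosomal protein (r = 0.981). These are Pearson correlations of log2 CPM, the points share the genotype difference, and they are given as a description.

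The second question was whether the genes differ between ZT14 and ZT2. In clk856, edgeR called 0 of the 10 members and 0.0244% of 8188 genes (2 genes, both higher at ZT14). These were the clock genes *tim* and *vri*. The same test did not call the clock genes *Clk* (log2 fold change -2.63, adjusted p = 0.0559) and *per* (0.94, adjusted p = 0.631). A gene not called with 2 libraries against 2 is therefore not shown to be constant over the day. At an unadjusted p under 0.05 there were 1 of 10 members and 6.77% of all genes, and DESeq2 and the likelihood ratio test called 0 members. The libraries of the time points did not overlap for 4 of the 10 members, *Rheb* and *Thor* higher and *chico* and *foxo* lower at ZT14, where 38.5% of all genes did not overlap (21.3% higher and 17.2% lower at ZT14).

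*Thor* had 19 and 74 reads in clk856 at ZT14, against 1 and 0 reads at ZT2. The pooled reads, 93 against 1, gave a ratio of 88.1 with an exact 95% interval of 15.4 to 3515.4, which covers counting error only. The test gave an unadjusted p of 0.0123 and an adjusted p of 0.686, and its fitted log2 fold change of 6.21 (SE 1.78) rests on the single read at ZT2. Of the hemocyte markers, *NimC1* was also higher at ZT14 in clk856, at 50 and 31 reads, against 0 and 0 reads at ZT2 (edgeR unadjusted p = 0.00837, adjusted p = 0.686). Within ZT14, *Thor* was higher in R2 and *NimC1* was higher in R1. The marker *Pxn* had a log2 fold change of 0.13 (edgeR adjusted p = 0.949). The sum of the 4 hemocyte markers, carried by *Pxn*, was 123 and 139.6 RPM at ZT14, against 92.8 and 131 RPM at ZT2. Within ZT14 it was higher in R2, as was *Thor*. He was at 0 in all of these libraries, and *Hml* was above 0 in ZT14 R2 only, the clk856 library with the most *Thor* reads. The part of other cells in the *Thor* values was not tested. In nSyb, *Thor* had 164 and 0 reads at ZT14, against 0 and 71 reads at ZT2, so that replicates of 1 time point differed as much as the time points of clk856. At 0 were 3 of the 4 hemocyte markers in nSyb ZT14 R1, ZT14 R2 and ZT2 R1, and 2 of the 4 in nSyb ZT2 R2. Their sum in nSyb was 125 and 84.7 RPM at ZT14 and 84.4 and 153 RPM at ZT2. The glial sum was 295 and 176 RPM at ZT14 and 136 and 323 RPM at ZT2. Both sums were higher in the nSyb libraries with *Thor* reads than in those without. In clk856, the glial sum was 76.2 and 123 RPM at ZT14, against 122 and 111 RPM at ZT2. The part of these cells in the nSyb values of *Thor* was not tested either.

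For *foxo*, the clk856 libraries had 4.56 and 5.07 RPM at ZT14, against 10.6 and 11.3 RPM at ZT2, with a log2 fold change of -1.18 (SE 0.49, unadjusted p = 0.0509, adjusted p = 0.743). The replicates lay close together and the time points apart. With such close replicates, leaving out 1 library could change the value little, and it stayed between -1.25 and -1.13. The replicates may come from 1 dissociation, so their closeness may be technical. The other 8 members had log2 fold changes between -0.16 and 0.56 in clk856, with adjusted p values of 0.836 to 0.996. *Akt1* was at the upper end (0.56, SE 0.46) and *chico* at the lower end (-0.16, SE 0.22).

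In nSyb, edgeR called 0 of the 9 members tested and 0% of 7671 genes. No member and 3.95% of all genes had an unadjusted p under 0.05, the likelihood ratio test called 0 members, and DESeq2 called 1, *InR* (log2 fold change -0.94, adjusted p = 0.0455). The member *foxo* was not tested, because too few nSyb libraries reached the minimum count. The time points did not overlap for 4 of the 9 members, *Tor* and *S6k* higher and *InR* and *Rheb* lower at ZT14, where 32.6% of all genes did not overlap (16.9% higher and 15.7% lower at ZT14).

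The 2 members of nSyb with an unadjusted p near 0.05 were the receptor and the S6 kinase. *InR* had 23.8 and 23.5 RPM at ZT14, against 47.5 and 42.2 RPM at ZT2, with a log2 fold change of -0.94 (SE 0.39, unadjusted p = 0.0538, edgeR adjusted p = 1). *S6k* had 110 and 46.7 RPM at ZT14, against 38.9 and 33.0 RPM at ZT2, with a log2 fold change of 1.11 (SE 0.47, unadjusted p = 0.0563, edgeR adjusted p = 1). The *S6k* value rested largely on 1 library and ranged from 0.36 to 1.62 when a library was left out. That of *InR*, whose replicates were close at both times, could change little and ranged from -0.98 to -0.88.

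The time effects of the genotypes were then compared in 1 fit of all 4 groups (clk856 minus nSyb). The edgeR interaction called 0 members and 0.0112% of 8926 genes, and DESeq2 and the likelihood ratio test called 0 members. At an unadjusted p under 0.05 there were 1 member and 6.51% of all genes. This member was *foxo* (unadjusted p = 0.0316, adjusted p = 0.754), whose fitted value depends on the prior count because both nSyb libraries at ZT14 had 0 reads. For *S6k* the difference in the time effect was -1.25 (SE 0.54, adjusted p = 0.765), and for *InR* it was 0.94 (SE 0.52, adjusted p = 0.82).

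The same comparisons were made for 68 other genes of the pathway, grouped by role. Between genotypes 54 were tested, and 12 were higher and 5 lower in clk856 while 37 were not called (edgeR), beside the 17.0% called over all genes. The median log2 fold change was 0.19, against -0.01 for all genes. The libraries did not overlap for 25 of the 54 (14 higher, 11 lower), beside 26.7% of all genes (12.3% higher, 14.4% lower). The split depended on the scaling, since with library size alone, which moved the median of all genes to -0.14, it was 9 higher and 7 lower, and for all genes it was 675 higher and 787 lower in place of 805 and 521. The 17 calls became 11 without clk856 ZT2 R1 and 10 without clk856 ZT2 R2.

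**Figure D4:**
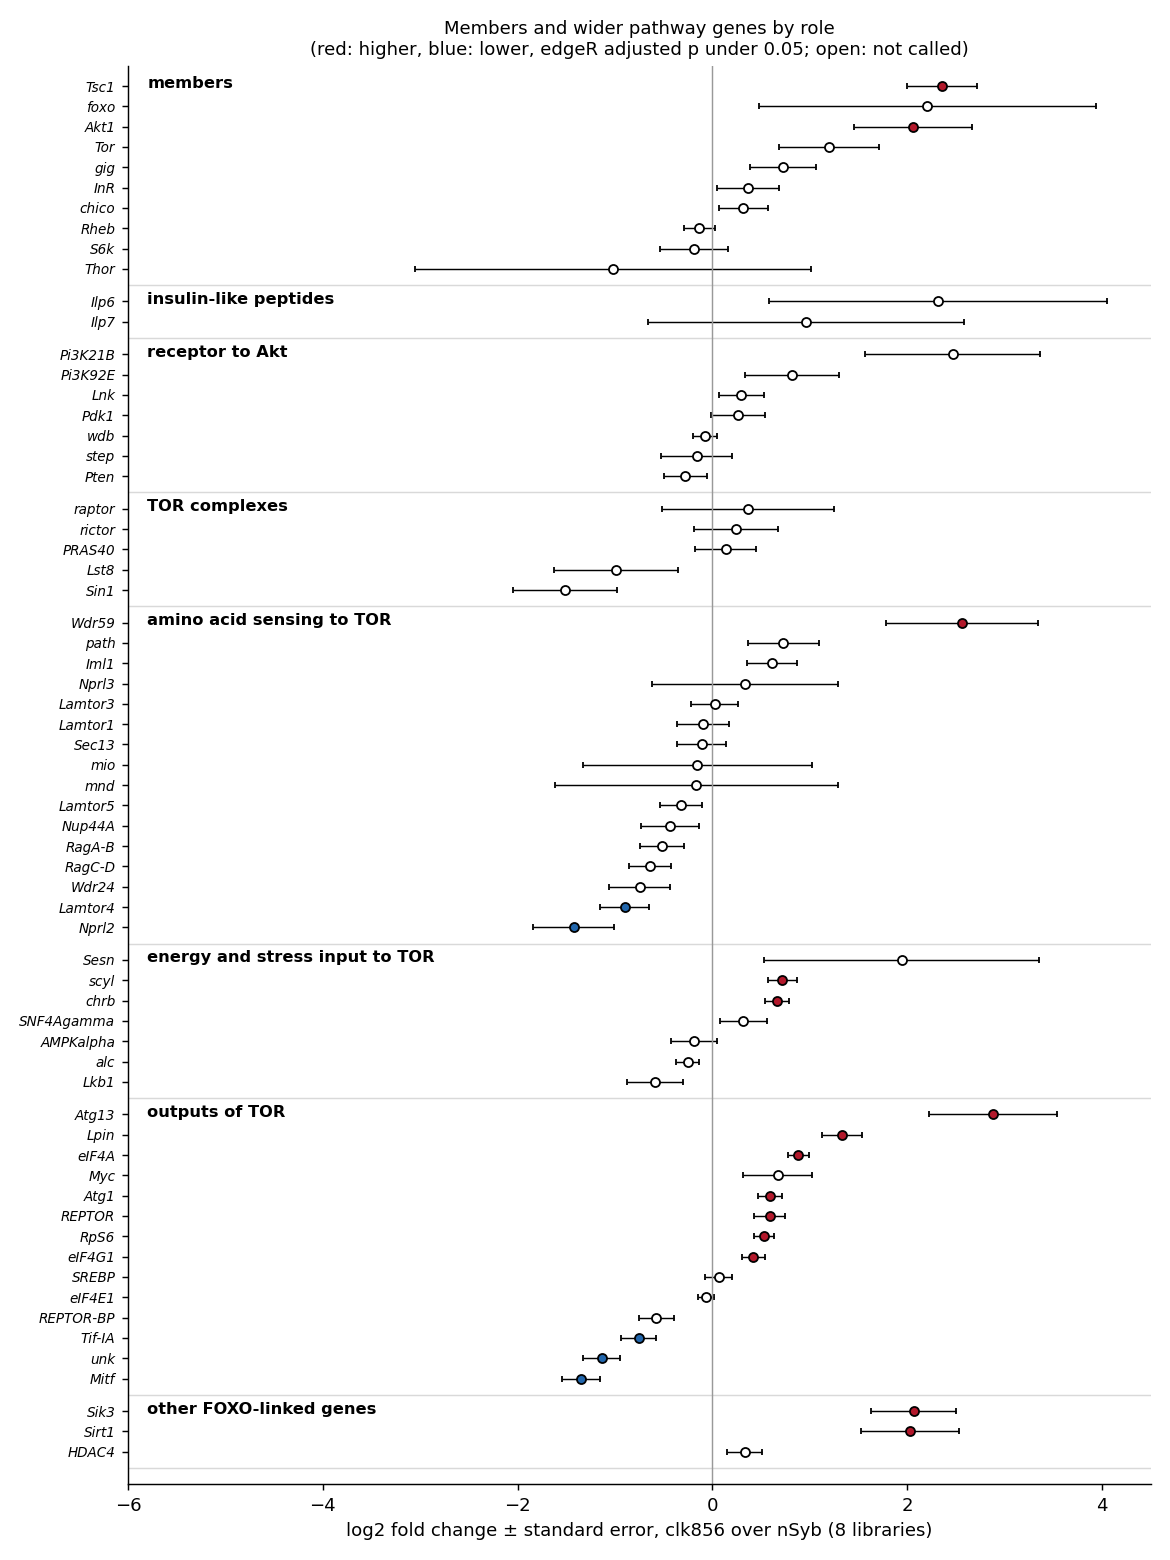
Log2 fold changes of clk856 over nSyb with their standard errors (horizontal axis) for the 10 members and 54 other pathway genes, grouped by role, with red for higher, blue for lower (edgeR adjusted p under 0.05) and open points for genes not called. The called genes run from -1.43 (Nprl2) to 2.88 (Atg13), and the roles from the ligands to the TOR complexes hold open points only.

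Upstream of the members, 2 of 10 genes of insulin-like peptides and their binding proteins were tested (*Ilp6* and *Ilp7*), and no more than a few RPM were found for any of the peptides *Ilp1*, *Ilp2*, *Ilp3*, *Ilp5*, *Ilp6* and *Ilp7*. From the receptor to Akt, 0 of 7 genes tested were called by edgeR and DESeq2, beside 17.0% called by edgeR over all genes. At an unadjusted p under 0.05 there was 1, beside 29.6% of all genes. The likelihood ratio test called that gene, *Pi3K21B*, the regulatory subunit of PI3 kinase. It was named after its values were seen and had 31.0 to 58.0 RPM in clk856, against 0.17 to 17.9 RPM in nSyb (log2 fold change 2.47, SE 0.90, adjusted p = 0.0915). Of the other subunits of the TOR complexes, 0 of 5 were called by edgeR, with 1 at an unadjusted p under 0.05 (29.6% of all genes). DESeq2 and the likelihood ratio test called that gene, *Sin1*, a subunit of TOR complex 2. Its log2 fold change was -1.51 (SE 0.54, edgeR adjusted p = 0.0837), and it was also named after its values were seen.

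Among genes that link amino acids to TOR, 1 of 16 tested was higher and 2 were lower, beside 10.3% higher and 6.69% lower over all genes. The 3 called of 16 were a share near the 17.0% called over all genes. *Wdr59*, a subunit of GATOR2, averaged 37.5 ± 5.27 RPM in clk856 and 6.71 ± 6.61 RPM in nSyb (SD, n = 4 each), with a log2 fold change of 2.56 (SE 0.78, adjusted p = 0.0494). *Nprl2*, a subunit of GATOR1, averaged 9.69 ± 2.98 RPM in clk856 and 27.1 ± 10.7 RPM in nSyb (log2 fold change -1.43, SE 0.42, adjusted p = 0.0419). *Lamtor4*, a subunit of the Ragulator complex, averaged 17.5 ± 0.868 and 34.3 ± 8.64 RPM (-0.90, SE 0.25, adjusted p = 0.0334). All 3 were close to the threshold and were lost without 1 library: *Wdr59* without any except nSyb ZT14 R2 or nSyb ZT2 R2 (adjusted p up to 0.114), *Nprl2* without any except nSyb ZT14 R2 (up to 0.111), and *Lamtor4* without any except nSyb ZT14 R2 or nSyb ZT2 R2 (up to 0.0854).

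Of 7 genes of energy and stress input tested, 2 were higher in clk856, beside 10.3% higher over all genes. These were the fly homologs of REDD1, which inhibit TOR under stress. The first, *scyl*, averaged 179 ± 6.41 RPM in clk856 and 114 ± 25.4 RPM in nSyb (log2 fold change 0.72, SE 0.15, adjusted p = 0.00944). The second, *chrb*, averaged 369.6 ± 21.9 and 243 ± 34.4 RPM (0.67, SE 0.12, adjusted p = 0.00481). Neither overlapped between the genotypes, and leaving out 1 library kept both calls.

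Of 14 outputs of TOR tested, 7 were higher and 3 were lower, beside 10.3% higher and 6.69% lower over all genes. *Atg13*, which acts with Atg1 at the start of autophagy, averaged 12.1 ± 6.56 RPM in clk856 and 1.72 ± 0.429 RPM in nSyb (log2 fold change 2.88, SE 0.66, adjusted p = 0.0135). Without clk856 ZT2 R2, where it was highest, the call was lost (2.43, adjusted p = 0.0745). *Lpin*, the lipin that acts in fat synthesis, averaged 146 ± 17.6 and 60.3 ± 16.4 RPM (1.33, SE 0.20, adjusted p = 0.00172).

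The lower outputs included *Mitf*, the fly relative of the lysosomal gene regulator TFEB, with 26.7 ± 2.92 RPM in clk856 and 71.3 ± 14.5 RPM in nSyb (SD, n = 4 each, log2 fold change -1.35, SE 0.19, adjusted p = 0.00117). The zinc finger gene *unk* (unkempt) averaged 62.4 ± 9.44 and 143 ± 31.0 RPM (-1.14, SE 0.19, adjusted p = 0.0031). *Lpin*, *Mitf* and *unk* kept their calls when any 1 library was left out.

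Among other genes linked to FOXO, 2 of only 3 tested were higher, beside 10.3% higher over all genes. *Sik3*, a salt-inducible kinase, averaged 26.7 ± 4.45 RPM in clk856 and 6.71 ± 2.89 RPM in nSyb (log2 fold change 2.07, SE 0.44, adjusted p = 0.00977). The deacetylase gene *Sirt1* averaged 49.1 ± 9.11 and 12.6 ± 9.01 RPM (2.03, SE 0.50, adjusted p = 0.0206), and its call was lost without clk856 ZT2 R1 (adjusted p = 0.0614) or clk856 ZT2 R2 (0.0558). Other genes share 13.4% of the exon bases of *Sirt1*, 11.2% of those of *Nprl2*, 10.9% of those of *Lpin*, 10.1% of those of *Lamtor4* and 6.74% of those of *Sik3*.

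Between time points, edgeR called 0 of 55 pathway genes tested in clk856, with 3 at an unadjusted p under 0.05 (6.77% of all genes), and DESeq2 and the likelihood ratio test called 0. In nSyb, edgeR and the likelihood ratio test called 0 of 55, with 2 at an unadjusted p under 0.05 (3.95% of all genes), and DESeq2 called 3, *Wdr59*, *Sirt1* and *Sec13*. In the interaction, edgeR called 0 of 58, with 7 at an unadjusted p under 0.05 (6.51% of all genes). The likelihood ratio test called 2 of these genes, *Wdr59* and *Sirt1*, and DESeq2 called 3, *Wdr59*, *Sirt1* and *Pi3K21B*, of which *Pi3K21B* was named after its values were seen, as was *Sec13*.

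For *Wdr59*, *Sirt1* and *Pi3K21B*, both nSyb libraries at ZT14 lay above both at ZT2. *Wdr59* had 10.8 and 13.9 RPM in nSyb at ZT14, against 1.31 and 0.86 RPM at ZT2, *Sirt1* had 21.2 and 19.7 RPM against 5.45 and 4.29 RPM, and *Pi3K21B* had 12.0 and 17.9 RPM against 0.17 and 3.0 RPM. In clk856, *Wdr59* had 34.8 and 39.3 RPM at ZT14, against 31.9 and 44.0 RPM at ZT2, and *Sirt1* had 39.9 and 43.7 RPM against 60.2 and 52.5 RPM. *Pi3K21B* was lower at ZT14 in clk856 without overlap (log2 fold change -0.66, edgeR unadjusted p = 0.0197, adjusted p = 0.69). The difference in the time effect, clk856 minus nSyb, was -3.55 for *Wdr59* (SE 0.62, edgeR adjusted p = 0.316) and -2.51 for *Sirt1* (SE 0.43, edgeR adjusted p = 0.316). For *Pi3K21B* it was -3.86 (SE 1.29, edgeR adjusted p = 0.746).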

How the data were processed

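RNA from 8 libraries of sorted neurons was analysed. Per the methods and the labels, cDNA was made from poly(A) RNA with the SMART-seq2 protocol, and reads were aligned to dm6 with STAR after demultiplexing with bcl2fastq 2.20, with PCR duplicates removed by Picard. Raw counts of reads per gene were deposited, and the counting program, strand and annotation release are not given in the sources used here. RPM values were deposited by the authors as raw reads scaled to a library total that was 1.84 to 1.88 times the reads listed. The deposited RPKM values were not used, because the deposited length was the gene span plus 1, introns included, for 104 of the 107 genes listed here (all members included) and 0 for the other 3. RPM per kb was calculated with exon lengths of the Ensembl BDGP6.54 annotation, which also gave positions. Reads outside genes made up 5.53% to 8.94% of a library and ambiguous reads 5.67% to 6.10%, and both were left out of the tests.

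Counts were tested with edgeR 4.0.16 (TMM, filterByExpr with a minimum count of 10, quasi-likelihood test) in R 4.3.3, and the Benjamini-Hochberg adjustment ran over all genes of a comparison, with a threshold of 0.05. Genotypes were compared 4 against 4 without a covariate, time points 2 against 2 within a genotype, and time effects as an interaction. The alternatives were the likelihood ratio test, DESeq2 1.42.0, limma 3.58.1 (voom), other scalings, no filter, single time points, time as a covariate, the replicate block and leaving out each library. Scripts were tested on simulated data. Named genes were all members, pathway genes past the threshold (at most 2 largest and 2 smallest log2 fold changes per role) and the 3 genes most like *Tsc1*. Python 3.11.15, pandas 2.3.3, scipy 1.17.1 and matplotlib 3.10.9 were also used. The members and lists were chosen with earlier results of these data known, and none of the lists is independent evidence. If the libraries of a genotype were sequenced in a run of their own, which the sources used here do not say, run and genotype cannot be told apart.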

Additional observations from a re-analysis of the deposited data

Results flagged for a closer look

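In 7 of 54 groups of 4 libraries (27 genes in each genotype), 1 library lay far from the other 3, where chance gives about 1 in 20 groups. Among the members, *foxo* had 7.09 RPM in nSyb ZT2 R1, against at most 0.11 RPM in the other nSyb libraries. *Tor* had 40.82 RPM in clk856 ZT14 R1, against at most 29.39 RPM in the other clk856 libraries, and *chico* had 39.57 RPM in clk856 ZT2 R2, against at most 33.32 RPM. *S6k* was lowest in clk856 ZT14 R2, with 42.05 RPM against at least 49.44 RPM. Of the other pathway genes, *Atg13* had 21.93 RPM in clk856 ZT2 R2, against at most 9.33 RPM, and 1.08 RPM in nSyb ZT2 R1, against at least 1.86 RPM. *Mitf* had 92.83 RPM in nSyb ZT2 R1, against at most 66.24 RPM. The library nSyb ZT2 R1 accounted for 3 of the 7 groups.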

How the results depend on the processing

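Between genotypes, 2 members were called, but 1 with library size only, no filter, time as a covariate, the replicate block or limma voom, 0 with ZT2 or ZT14 alone, and 1 to 3 with 1 library left out. The 17 pathway genes called became 0 at ZT2, 3 at ZT14, 11 with the replicate block and 10 to 18 with 1 library left out. The 1326 genes called in all became 2123 with DESeq2, 8 at ZT2, 340 at ZT14, 860 with the replicate block and 942 to 1380 with 1 library left out. The sign turned for *InR* (-0.025) and *S6k* (0.55) at ZT2, *Rheb* (0.11) at ZT14 and *Thor* (1.06) with voom, and with 1 library left out *S6k* ranged from -0.36 to 0.36 and *Thor* from -2.76 to 0.33. In clk856, the 2 genes called between times became 97 with the likelihood ratio test, 85 with DESeq2, 81 without a filter, 0 in the fit of all 8 libraries, 4 with the replicate block and 2 to 3 with 1 library left out. With 1 left out, *InR* ranged from -0.40 to 0.60, *gig* from -0.080 to 0.32, *Tsc1* from -0.65 to 0.22, *Tor* from -0.056 to 0.51 and *S6k* from -0.27 to 0.0049. In nSyb, DESeq2 called 1 member, 3 pathway genes and 224 genes in place of 0, the likelihood ratio test 6, the fit of all 8 libraries 1, and 0 to 1 were called with 1 left out. The ranges were -0.69 to 0.34 for *chico*, -0.50 to 1.64 for *Akt1*, -0.81 to 0.17 for *gig*, -0.89 to 0.12 for *Tsc1* and -8.16 to 9.40 for *Thor*. In the interaction, 0 pathway genes became 2 with the likelihood ratio test, 3 with DESeq2 or no filter and 0 to 1 with 1 left out, and 1 gene in all became 85, 178, 98 without a filter, 0 with the replicate block and 0 to 85 with 1 left out. The ranges were -0.51 to 0.54 for *chico*, -1.09 to 1.07 for *Akt1*, -0.051 to 0.93 for *gig*, -0.26 to 0.75 for *Tsc1* and -2.90 to 14.23 for *Thor*. The causes were not tested. Deviations of same-numbered libraries correlated between groups at -0.03 to 0.03, so that an equal number in different groups went with no shared deviation. These values cannot tell what R1 and R2 of the same group share. The reads of *foxo* and *Thor* in nSyb limit both genes, with 0 reads in 2 of 4 nSyb libraries for each. Their fold changes between genotypes had wide standard errors (1.73 and 2.03). Where a fit leaves a group with almost no reads, the fold change depends on the prior count.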
